A study of Mus musculus with 32 samples.

Results

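The comparison described here set 4 arrays labelled Pparg knockout against 4 labelled Pparg control, all from mice at room temperature, out of 32 arrays in the series. The members were chosen by their sample titles, which name the Pparg gene, the in vivo protocol, room temperature, the genotype and a replicate number from 1 to 4. The labels give the strain of both groups as C57Bl/6 and the cell type as preadipocytes. No other allele, agent, age or sex is stated, and neither is the way the knockout was made, the cell type in which it acts or the part of the gene removed. RNA from each sample was amplified, labelled with Cy3 and hybridised to a 1-colour Agilent array, so that a value is the brightness of a probe. The other 24 arrays held the same genotypes in the cold, in 2 groups of 4 that are used below as a comparison, and cultured cells that are not used here. Whether a group's samples were separate animals is not given in the labels, and a p-value here therefore reflects no more than the variation among arrays, part or all of which may be technical.

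Pparg encodes PPARγ, the nuclear receptor that switches on the fat cell programme when it pairs with a retinoid X receptor and binds lipid-metabolism genes. In brown fat it supports lipid uptake, triglyceride storage and, together with PGC-1α and PPARα, the heat-producing programme of Ucp1, which encodes the protein that lets protons leak across the inner mitochondrial membrane. Glycerol kinase, the product of Gk, phosphorylates glycerol so that it can be used again for triglyceride, and is a known PPARγ target in fat cells.

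All levels below are log2 intensities relative to the 75th percentile of the same array, so that 0 marks that percentile and a difference of 1 is a 2-fold difference. They order arrays for a given probe, but they do not order different genes. Before scaling, the 75th percentile intensity was 498.5 to 603.7 on the arrays labelled knockout and 292.7 to 406.2 on control arrays, so the brightness of whole arrays moved with the genotype label, and its part in the results was not tested. The share of spots well above background was 57.5% to 60.8% on the arrays labelled knockout and 53.6% to 60.9% on control arrays, and no spot was saturated. The 8 arrays lay on 2 slides that each held 2 arrays of either group. Within both slides the controls took positions 1 and 2 and the knockouts positions 3 and 4, so position and genotype cannot be told apart. Arrays correlated at 0.986 to 0.992 among the arrays labelled knockout and at 0.985 to 0.990 among controls, against 0.953 to 0.965 between the groups. Although the label says preadipocytes, genes of differentiated fat cells were detected: 9 of 9 brown adipocyte markers and 7 of 7 mature adipocyte markers were well above background on all 8 arrays. In such bulk RNA, fewer cells of a type and less RNA per cell cannot be told apart.

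Pparg itself did not fall on the arrays labelled knockout. Its probe stood at 7.50, 7.53, 7.44 and 7.37 on arrays labelled knockout 1 to 4, against 5.53, 5.26, 5.47 and 5.29 on control arrays 1 to 4. Every array labelled knockout was above every control array. The difference was 2.08 (SE 0.09), or 4.22-fold, with an adjusted p of 4.42e-06 in limma. In the cold, whose arrays are separate samples, the same probe was also higher, by 2.13. A probe outside the deleted part checks nothing about a deletion, and neither the labels nor the files say which part was removed or where this probe lies, so the knockout itself is not checked here. Directions below are therefore those of the arrays labelled knockout against control.

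Ucp1, by contrast, fell. It stood at 9.32, 9.39, 8.92 and 8.98 on the arrays labelled knockout, against 10.03, 9.85, 10.22 and 10.57 on control arrays. The groups did not overlap, and the difference was -1.02 (SE 0.18, adjusted p = 0.00213 in limma), a 2.02-fold lower level. With quantile normalization the difference was -0.44. Gk stood at 1.98, 2.52, 1.96 and 2.66 on the arrays labelled knockout, against 3.1, 2.63, 3.23 and 3.46 on control arrays. Here the groups overlapped, since the fourth array labelled knockout lay just above the second control. The difference of -0.82 (SE 0.22) had an adjusted p of 0.0170 in limma, and it was -0.55 on slide 1 alone (adjusted p = 0.294) and -1.09 on slide 2 alone. In a 2-sided exact permutation test over the 70 orders of the labels, p was 0.0286 for Pparg and Ucp1, the smallest value 4 against 4 arrays can give, and 0.0571 for Gk.

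**Figure D1:**
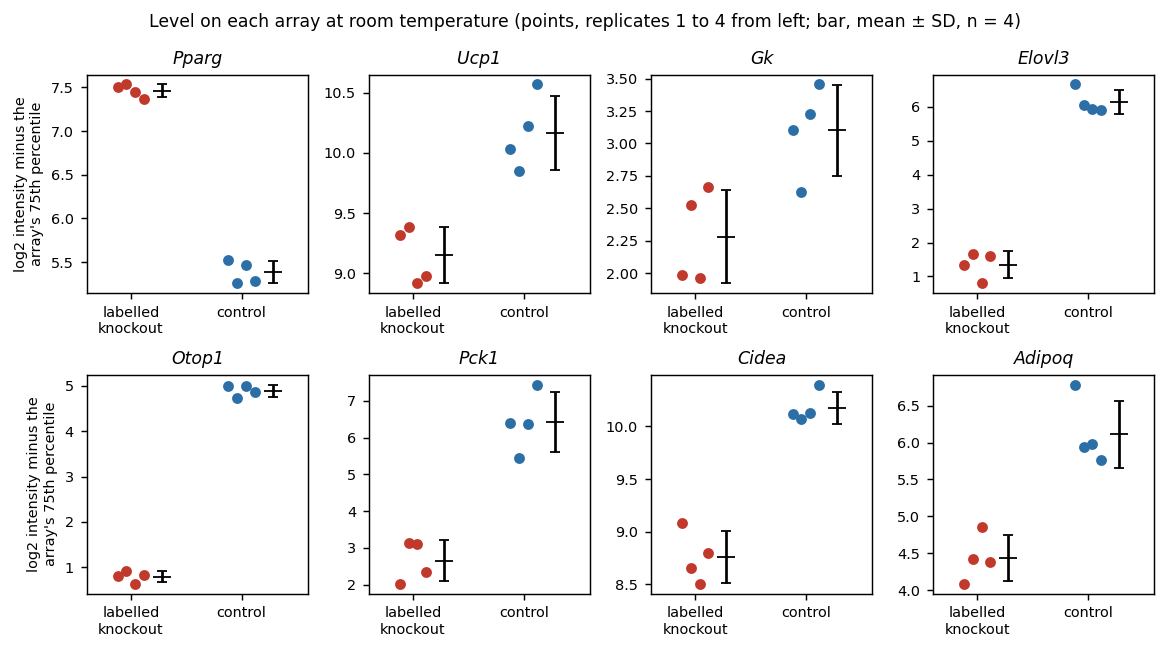
Levels of 8 genes on each room-temperature array, as log2 intensity minus the 75th percentile of the array (vertical axes, scaled per gene and not starting at 0). Points are the 4 arrays labelled knockout (left, red) and the 4 control arrays (right, blue), and the black bars give the mean ± SD; the groups overlap for Gk alone.

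Of 13232 genes tested, 5903 (44.6%) passed an adjusted p of 0.05. On the arrays labelled knockout 2590 (19.6%) were higher and 3313 (25.0%) lower. The median change of all tested genes was -0.05. A change of at least 2-fold in addition was seen for 600 genes that were higher (4.53%) and 711 that were lower (5.37%). The share of called genes that were higher depended on the scaling: it was 43.9% here, 52.2% with quantile normalization and 59.0% when each array was scaled on its median, which shifted the median of all genes by 0.12. Counts for the gene lists below are to be read against 19.6% higher and 25.0% lower. With 2 arrays a group on each slide, 1193 genes were called on slide 1 alone and 4057 on slide 2 alone, and fewer members of most lists passed on slide 1 alone. Across the 13232 genes, which are not independent, the changes on the 2 slides correlated at 0.806.

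The 12 largest rises included an enzyme of glucose synthesis and a cyclooxygenase. Fbp1, which encodes the gluconeogenic enzyme fructose-1,6-bisphosphatase, stood at 5.93, 5.66, 5.59 and 5.66 on the arrays labelled knockout, against -0.57, -1.01, -1.51 and -2.0 on control arrays. No array of a group came near the other group. Its difference of 6.98 (SE 0.28, adjusted p = 3.89e-06) was a 126-fold higher level. Ptgs1, the cyclooxygenase that makes prostaglandin precursors, stood at 5.61, 5.33, 5.26 and 5.06 on the arrays labelled knockout, against -0.87, -0.72, -0.64 and -0.77 on control arrays. These tightly grouped values gave a difference of 6.06 (SE 0.12, adjusted p = 1.73e-07).

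Apart from Mb, which is given with the muscle genes, the genes given from the 12 largest rises, all detected on at least 3 arrays of either group, were enzymes, secreted proteins and others. Cyp2f2, a cytochrome P450, rose by 5.71 (SE 0.58), Pon1, a secreted paraoxonase, by 4.76 (SE 0.28), and Sult5a1, a sulfotransferase, by 4.52 (SE 0.41). Cbs, which condenses homocysteine and serine, rose by 4.24 (SE 0.49), and Lcn2, the iron-siderophore binding protein lipocalin 2, by 3.94 (SE 0.29). Anxa8, an annexin, rose by 4.27, although its other probe gave 1.93. Phkg1, a catalytic subunit of phosphorylase kinase, rose by 3.76 (SE 0.23) and Lrrn4cl by 3.75 (SE 0.21). Anxa8 and Phkg1 were each not well above background on 1 control array, which limits the size of their changes. Further genes were well above background on all 4 arrays labelled knockout and on no control array. Of the 13232 genes tested, 115 met that condition and 17 had the opposite pattern. The arrays labelled knockout were brighter before scaling, which bears on detection, and the part of brightness in these counts was not tested. For genes detected on the arrays labelled knockout alone, only a lower bound of the change can be given. It is the knockout mean over the control mean. Control values under the dimmest measurable signal of their array were first raised to that signal. Cyp4f14, an omega-hydroxylase of the cytochrome P450 family, was at least 39.0-fold higher, Saa3, an acute-phase serum amyloid A, at least 20.6-fold, Ephx4, of the epoxide hydrolase family, at least 10.04-fold, Dgkg, a diacylglycerol kinase, at least 8.79-fold and Plch2, a phospholipase C, at least 8.73-fold. These 5 genes were picked among those past the threshold in limma. They entered the fit through the arrays labelled knockout alone, so their calls add no support.

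The largest falls included several genes that mark brown or fully lipid-laden fat cells. Elovl3, the elongase of very long fatty acids typical of active brown fat, stood at 1.35, 1.66, 0.80 and 1.59 on the arrays labelled knockout, against 6.66, 6.06, 5.94 and 5.92 on control arrays. Otop1, a proton channel abundant in brown fat, stood at 0.80, 0.91, 0.63 and 0.82 on the arrays labelled knockout, against 5.0, 4.72, 5.0 and 4.86 on control arrays. Pck1, the cytosolic PEP carboxykinase that supplies glycerol 3-phosphate, stood at 2.02, 3.13, 3.11 and 2.34 on the arrays labelled knockout, against 6.40, 5.45, 6.38 and 7.44 on control arrays. All 3 separated the groups completely. Elovl3 fell by 4.79 (SE 0.23, adjusted p = 6.47e-06), Otop1 by 4.10 (SE 0.10, adjusted p = 3.13e-07) and Pck1 by 3.77 (SE 0.42, adjusted p = 0.000246) on the log2 scale.

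Clstn3, a calsyntenin that in adipocytes affects lipid droplets and innervation, fell by 4.25 (SE 0.12), and Sgk2, a serum- and glucocorticoid-regulated kinase, by 5.31 (SE 0.59). Cpne5, a calcium-dependent phospholipid-binding copine, fell by 4.82 (SE 0.25). Cntfr, the receptor subunit for ciliary neurotrophic factor, fell by 4.24 (SE 0.53), Fgf9, a growth factor, by 3.73 (SE 0.21) and Lamb3, a laminin chain, by 3.88 (SE 0.28), the last with 1 of the arrays labelled knockout not well above background. Tmem45b (fell by 3.62), Mal2 (fell by 3.56) and Mfsd4b1 (fell by 3.52) completed the 12. Among genes detected on all 4 control arrays and on none labelled knockout, Gm9961 was at least 27.95-fold lower, B4galnt2, a glycosyltransferase, at least 18.7-fold, Fam131c at least 18.5-fold, Cabcoco1 at least 18.5-fold and Serinc2 at least 14.5-fold. These bounds too hold only for the background method and scaling used here. Under the alternatives the smallest log2 changes were -2.30 for Gm9961, -2.01 for B4galnt2, -2.14 for Fam131c, -1.91 for Cabcoco1 and -1.72 for Serinc2. All of these are smaller falls than the bounds. The 5 genes were picked among those past the threshold in limma and entered the fit through the control arrays alone, so their calls add no support.

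**Figure D2:**
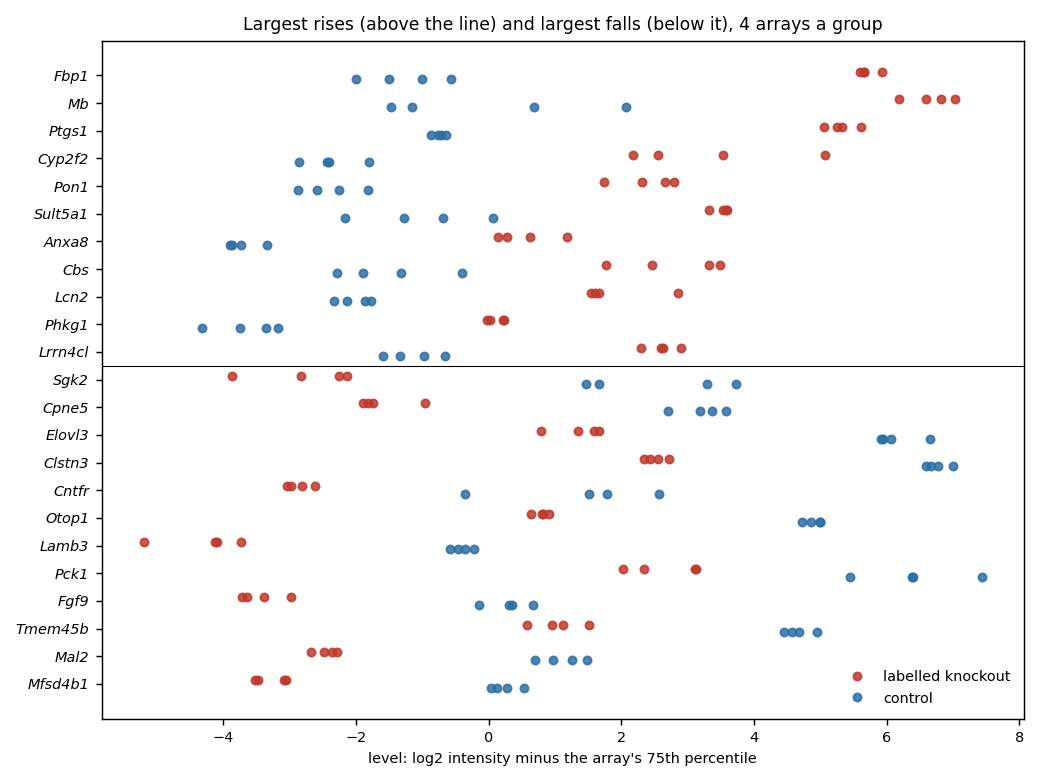
Level of each gene (horizontal axis, log2 intensity minus the 75th percentile of the array) on the 4 arrays labelled knockout (red, upper row of a gene) and the 4 control arrays (blue, lower row). Above the line stand 11 of the 12 largest rises and below it the 12 largest falls. The 23 genes shown were picked for large changes among called genes, so their lack of overlap is no further support.

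The thermogenic and brown adipocyte list moved mostly down: 14 of 20 members were lower, 3 were higher and the median was -0.92, beside -0.05 for all genes. Besides Elovl3, Otop1 and Ucp1, the falls included Ntrk3, a neurotrophin receptor (fell by 3.41, SE 0.33), and Slc27a2, a fatty acid transporter with very-long-chain acyl-CoA synthetase activity (fell by 3.21, SE 0.18). Ucp3, a mitochondrial carrier related to Ucp1, rose by 2.10 (SE 0.17), while its other probe gave 0.18. Its levels were 3.38, 2.71, 2.60 and 2.92 on the arrays labelled knockout, against 0.65, 0.89, 0.72 and 0.96 on control arrays. The developmental regulators Zic1 and Lhx8 were the other higher members, by 0.90 and 0.78. Dio2, which makes active thyroid hormone, differed by 0.03 and Adrb3, the β3-adrenergic receptor, by -0.10, and neither passed the test. Counts of 3 higher and 14 lower were also obtained without the first array labelled knockout.

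Among adipogenic transcription factors, 6 of 25 members were higher and 9 lower, with a median of 0.03. Ppara, a fatty-acid-sensing nuclear receptor, stood at 2.44, 2.21, 2.76 and 2.26 on the arrays labelled knockout, against 4.76, 4.40, 5.26 and 5.31 on control arrays, a difference of -2.51 (SE 0.22). Ppargc1a, which encodes the coactivator PGC-1α, stood at 1.79, 1.87, 2.34 and 1.92 on the arrays labelled knockout, against 4.18, 3.35, 4.60 and 4.23 on control arrays, a difference of -2.11 (SE 0.25). Neither gene showed any overlap of the groups. Falls were also called for the related receptors Esrra (-1.15), Esrrg (-0.76) and Nr1h3 (-0.74), the retinoid receptor partners Rxrg (-0.96) and Rxrb (-0.57), the coactivator Ppargc1b (-0.62) and Cebpa (-0.49), the master factor that acts beside Pparg. Rises were called for Klf15 (1.80, SE 0.43), a glucocorticoid-responsive Krüppel factor, and, besides Pparg, for Ebf3 (0.82), Stat5a (0.65), Prdm16 (0.56) and Nrip1 (0.48). Prdm16 drives and Nrip1 represses brown fat genes.

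Triglyceride assembly genes fell in most cases: of 20 tested members, 13 were lower and 4 higher, with a median of -0.68. The falls reached from glycerol supply to the acyl transfers. Pck1 was described above, Aqp7, the channel that carries glycerol, fell by 1.95 (SE 0.11), Gpd1, which makes glycerol 3-phosphate from a glycolytic intermediate, by 1.69 (SE 0.10) and Gk by 0.82. Agpat2, the acyltransferase that makes phosphatidic acid and is needed for fat formation, stood at 4.34, 3.83, 3.46 and 3.91 on the arrays labelled knockout, against 6.50, 6.65, 6.47 and 6.62 on control arrays. The drop of 2.68 (SE 0.17, adjusted p = 1.76e-05) was far larger than the spread within the groups. Monoacylglycerol acyltransferase genes parted: Mogat1 fell by 1.95 (SE 0.18), and Mogat2 stood at 1.47, 0.71, 0.84 and 1.57 on the arrays labelled knockout, against -3.25, -3.30, -3.86 and -4.59 on control arrays. The Mogat2 probe was well above background on only 2 of the 4 control arrays, so its fitted rise of 4.90 is not read as a size. The diacylglycerol acyltransferases parted too, with Dgat1 at -1.26 and Dgat2 at 0.78. Lpin3, a phosphatidic acid phosphatase, rose by 1.65.

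Coats and fusion proteins of the lipid droplet gave 9 lower and 5 higher members of 16 tested, with a median of -0.61. The CIDE proteins, which enlarge droplets, all fell, Cidec by 1.59 (SE 0.23), Cideb by 1.57 (SE 0.29) and Cidea by 1.42 (SE 0.14). Cidea stood at 9.08, 8.65, 8.51 and 8.80 on the arrays labelled knockout, against 10.12, 10.07, 10.12 and 10.40 on control arrays, with no overlap. Perilipins did not move as a family. Plin1, which guards the droplet of the fat cell, was at -0.54 and Plin5 at -0.88, and both were called lower. Plin2, the perilipin of most cell types, rose by 1.14 (SE 0.19). It stood at 9.04, 8.93, 8.77 and 8.82 on the arrays labelled knockout, against 7.55, 8.02, 8.16 and 7.29 on control arrays, with no overlap. Plin3 (1.05) and Plin4 (0.53) were higher as well, as was Hilpda, an inhibitor of the lipase ATGL (1.54, SE 0.12). On slide 1 alone 2 members were lower and 2 higher.

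Genes of fatty acid uptake and activation were lower in 12 and higher in 5 of 21 tested cases, with a median of -0.72. Fabp3, a fatty acid carrier that brown fat shares with heart, stood at 5.80, 6.76, 6.53 and 6.87 on the arrays labelled knockout, against 8.81, 8.56, 9.08 and 9.46 on control arrays, a difference of -2.49 (SE 0.27). Acss1, the mitochondrial acetyl-CoA synthetase, fell by 2.23 (SE 0.19) and Fabp4, the adipocyte fatty acid carrier, by 1.10. Acsl4, the acyl-CoA synthetase that prefers arachidonate, rose by 2.14 (SE 0.08) with no overlap. Lpl, the lipoprotein lipase (-0.07), and Cd36, the fatty acid translocase (-0.27), did not pass the test. Among lipases and regulators of lipolysis, 11 of 23 were lower and 3 higher, with a median of -0.51, or -0.33 without the first control. The lower members with the largest changes were Adora1, the adenosine A1 receptor (fell by 1.42), and Lipa, the lysosomal acid lipase (fell by 1.39). Ces1f, a carboxylesterase, rose by 1.69, and Ptger3, a receptor for prostaglandin E2 that restrains cyclic AMP, by 1.52 (SE 0.17). Pnpla2, which encodes ATGL, differed by 0.04 and did not pass.

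**Figure D3:**
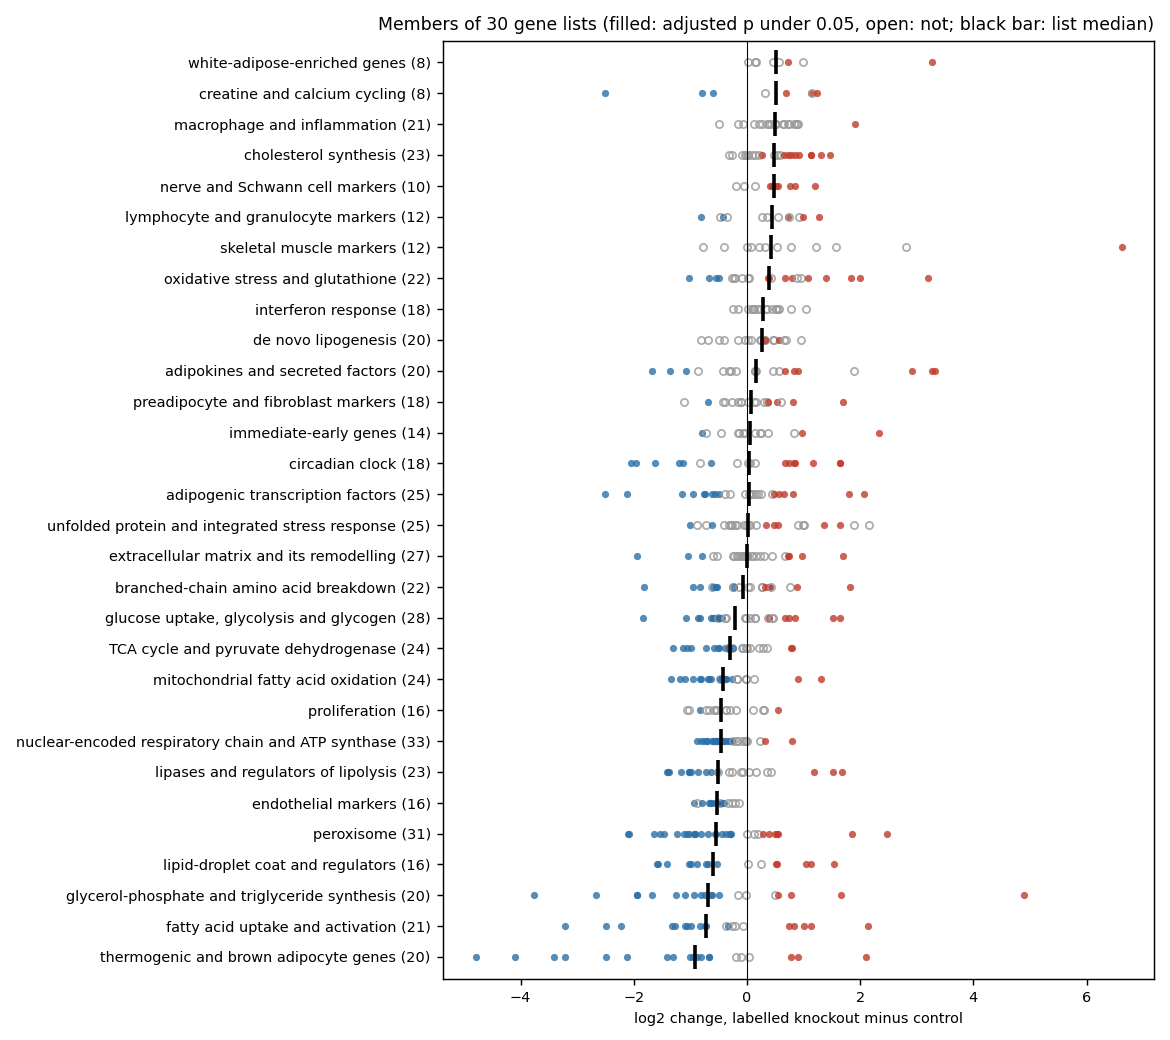
Change of every tested member of 30 gene lists (horizontal axis, log2, arrays labelled knockout minus control; number tested in brackets). Filled points passed an adjusted p of 0.05 in limma, open points did not, and black bars are list medians, which run from -0.92 for the thermogenic list to 0.51 for white-adipose-enriched genes.

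Mitochondrial genes moved down by small amounts in large numbers. Of 24 mitochondrial fatty acid oxidation genes 16 were lower and 2 higher (median -0.43). Lower members numbered 11 with quantile normalization, where 6 were higher, 9 with median scaling and 10 with the replicate number as a block. Slc25a20, which carries acylcarnitine into the matrix, fell by 1.35 (SE 0.12), and Acad11, an acyl-CoA dehydrogenase, by 1.10 (SE 0.09). The carnitine palmitoyltransferases of the outer membrane moved apart: Cpt1b, the form of muscle and brown fat, was at -0.96, and Cpt1a, the liver form, at 1.30 (SE 0.23). Cpt1a stood at 1.69, 1.95, 1.77 and 1.74 on the arrays labelled knockout, against -0.28, 0.89, 0.66 and 0.66 on control arrays, and the groups did not overlap. Of 33 nuclear-encoded subunits of the respiratory chain and ATP synthase, 23 were lower and 2 higher (median -0.47). Cytochrome c (Cycs) fell by 0.89 (SE 0.09), the complex I subunit Ndufv2 by 0.81 (SE 0.08) and the cytochrome oxidase subunit Cox5a by 0.76 (SE 0.11). Sdha, the flavoprotein of succinate dehydrogenase, rose by 0.79 (SE 0.10), while its partners Sdhb (-0.49), Sdhc (-0.30) and Sdhd (-0.42) were lower. With quantile normalization the respiratory chain gave 11 lower and 5 higher members, with a median of -0.21.

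Among genes of the TCA cycle and of pyruvate dehydrogenase, 12 of 24 were lower and 2 higher (median -0.29). The lower members included Suclg1 and Sucla2, subunits of succinyl-CoA ligase (fell by 1.31 and 1.07), citrate synthase Cs (fell by 1.13, SE 0.08) and Dlst, a core of oxoglutarate dehydrogenase (fell by 0.99). Cs stood at 7.50, 7.46, 7.23 and 7.35 on the arrays labelled knockout, against 8.51, 8.51, 8.55 and 8.50 on control arrays, and the gap between the groups was far wider than the spread within them. Quantile normalization left 6 lower and 3 higher members and a median of -0.02. Pcx, pyruvate carboxylase, rose by 0.77.

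Peroxisomal genes gave 21 lower and 7 higher members of 31, with a median of -0.55. Ehhadh, the bifunctional β-oxidation enzyme and a PPARα target in liver, stood at 0.41, 1.51, 0.86 and 0.83 on the arrays labelled knockout, against 2.62, 2.99, 2.95 and 3.39 on control arrays. That gap of -2.08 (SE 0.24) left the groups far apart. Acot4, a peroxisomal acyl-CoA thioesterase, fell by 2.10 (SE 0.12), and Pex14, part of the import machinery, by 1.65 (SE 0.10). Pecr, a trans-enoyl-CoA reductase, rose by 1.86 (SE 0.18). Abcd2, which carries very long acyl-CoAs into the peroxisome, stood at -1.98, -1.85, -2.09 and -2.36 on the arrays labelled knockout, against -5.30, -4.19, -4.23 and -4.47 on control arrays. Its probe was well above background on only 1 control array, so no size is given.

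Sugar, amino acid and fatty acid synthesis lists were mixed. For glucose uptake, glycolysis and glycogen, 11 of 28 were lower and 6 higher, with a median of -0.20 that turned to 0.12 under quantile normalization. Gys2, a glycogen synthase, fell by 1.83 (SE 0.27) and Ldha, lactate dehydrogenase A, by 1.08 (SE 0.16). Aldoc, the brain-type aldolase, rose by 1.64 (SE 0.13) and Ppp1r3c, which targets phosphatase to glycogen, by 1.52 (SE 0.32). For branched-chain amino acid breakdown, 7 of 22 were lower and 5 higher, and the median of -0.07 was 0.02 with quantile and 0.05 with median scaling. Higher members numbered 3 without the second or the third array labelled knockout or the second or the third control, and 2 with normexp. The 2 subunits of methylcrotonyl-CoA carboxylase moved in opposite directions, Mccc1 at 1.83 (SE 0.12) and Mccc2 at -0.95 (SE 0.15), as did those of the branched-chain dehydrogenase E1, Bckdhb at -1.82 (SE 0.14) and Bckdha at 0.38. Mccc1 stood at 4.44, 4.68, 4.84 and 4.39 on the arrays labelled knockout, against 2.83, 2.59, 2.75 and 2.86 on control arrays, without overlap. In de novo lipogenesis, 2 of 20 were higher (Scd4, a stearoyl-CoA desaturase, 0.56; Acacb, acetyl-CoA carboxylase 2, 0.33) and limma called 0 lower, also at an unadjusted p of 0.05. The median was 0.27, and the fatty acid synthase Fasn differed by 0.03. Without the first array labelled knockout 1 member was higher and 1 lower with a median of 0.09, and without the fourth control the counts were the same with a median of 0.16. Higher members numbered 4 without the first control, 1 without the second or the fourth array labelled knockout, 5 with quantile normalization and 0 with normexp, and on slide 1 alone the median was -0.16. The Acacb call was lost without any of 5 single arrays, at changes of 0.25 to 0.34.

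Cholesterol synthesis and uptake genes were higher in 10 of 23 cases, with a median of 0.49, and limma called 0 lower, against 1 at an unadjusted p under 0.05. Idi1, isopentenyl diphosphate isomerase, stood at 3.80, 3.32, 3.24 and 3.19 on the arrays labelled knockout, against 2.52, 2.01, 1.81 and 1.37 on control arrays. The groups did not overlap, and the difference was 1.46 (SE 0.24). Msmo1, a sterol methyl oxidase, rose by 1.13 (SE 0.16) and Cyp51, lanosterol demethylase, by 1.30 (SE 0.37). Hmgcs1, which acts early in the pathway, was at -0.27 and did not pass the test. The slides differed in size: 10 members were higher on slide 2 alone, with a median of 0.84, and 1 on slide 1 alone, with a median of 0.13. Without the first array labelled knockout, 7 were higher and 1 lower. With normexp 6 were higher with a median of 0.25, and the median was 0.23 without the fourth control. The Cyp51 call was lost without that array (1.23, adjusted p = 0.0536 in limma) and without the third control (1.12, adjusted p = 0.0550).

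The same list differed between room temperature and cold. The knockout effect at room temperature minus that in the cold passed an adjusted p of 0.05 for 1879 of 14065 genes (13.4%), of which 1019 (7.24%) were more positive at room temperature and 860 (6.11%) more negative. In the cholesterol list 16 of 23 members were more positive at room temperature, and the median change in the cold was -0.92. For Idi1 the cold change was -0.90 and the difference between conditions 2.36 (adjusted p = 0.00411 in limma), and for Msmo1 the difference was 1.81. By contrast the difference for Ucp1 was 0.00 and for Pparg -0.05, and neither passed. Room temperature and cold arrays lay on different slides scanned on different days, so temperature and slide cannot be told apart except that each effect was measured within its own slides. Position on the slide and array brightness moved with the genotype label at room temperature, which measuring within slides does not remove. In the cold, positions were mixed, and the 75th percentile intensity was 297.1 to 316.1 on knockout arrays and 277.0 to 358.8 on control arrays. The part of position and brightness in the differences between conditions was not tested. Without the first array labelled knockout at room temperature, 1231 genes had a difference between conditions.

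The circadian clock list split in 2 directions, with 7 of 18 members higher and 6 lower and a median of 0.04. In this clock, BMAL1 (Arntl) and CLOCK bind E-boxes and drive the Per, Cry, Nr1d1, Nr1d2 and Dbp genes, whose products feed back, with NR1D1 and NR1D2 repressing Arntl through ROR elements and DBP, TEF and HLF acting on D-boxes. The lower members were Nr1d2, Dbp, Per3, Nr1d1, Tef and Hlf, and the higher ones included Cry1, Bhlhe40, Arntl, Cry2, Nfil3 and Bhlhe41. Dbp stood at 2.07, 1.80, 1.59 and 2.39 on the arrays labelled knockout, against 4.49, 3.52, 4.0 and 3.67 on control arrays. Nr1d2 stood at -1.84, -2.50, -1.79 and -1.44 on the arrays labelled knockout, against 0.24, -0.27, 0.42 and 0.23 on control arrays. Arntl stood at -0.51, -0.29, 0.05 and -0.41 on the arrays labelled knockout, against -1.67, -1.14, -1.52 and -1.5 on control arrays. None of these 3 overlapped. The changes were -1.96 for Dbp (SE 0.24), -2.04 for Nr1d2 (SE 0.23) and 1.17 for Arntl (SE 0.15), with adjusted p-values of 0.000401, 0.000278 and 0.000559.

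Tef fell by 1.14 (SE 0.13), Nr1d1 by 1.19 (SE 0.18) and Hlf by 0.64 (SE 0.17), and Per3 was at -1.62 with only 2 arrays labelled knockout well above background. Cry1 was at 1.65 (SE 0.47) with 1 control array not well above background, and its call was lost with normexp background correction and without the second (1.58) or the third (1.53) array labelled knockout. Cry2 rose by 0.84, Nfil3, a repressor at D-boxes, by 0.83 and Bhlhe41 by 0.66, the last with 1 control array not well above background and with its call lost without the first array labelled knockout (0.57) or the third control (0.61). Bhlhe40 stood at 2.96, 2.76, 3.11 and 1.88 on the arrays labelled knockout, against 2.26, 1.61, 0.19 and 0.08 on control arrays, so its groups overlapped despite an adjusted p of 0.0306 in limma, and its call was lost without any of 5 single arrays, at changes of 1.32 to 1.61. Per1 (-0.82), Per2 (0.06) and Clock (0.14) did not pass. The labels give no time of day of sampling, and whether it differed between the groups was not tested. In the cold the same contrast gave 0.66 for Dbp, 0.33 for Nr1d2, 0.85 for Per3, 0.63 for Tef and -0.08 for Arntl. The difference between room temperature and cold passed for Dbp (-2.62, adjusted p = 0.00163), Nr1d2 (-2.37, adjusted p = 0.000526), Per3 (-2.47, adjusted p = 0.00206), Tef (-1.77, adjusted p = 0.00240), Nr1d1 (-0.97, adjusted p = 0.0468), Arntl (1.25, adjusted p = 0.0156) and Clock (0.77, adjusted p = 0.0128).

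**Figure D4:**
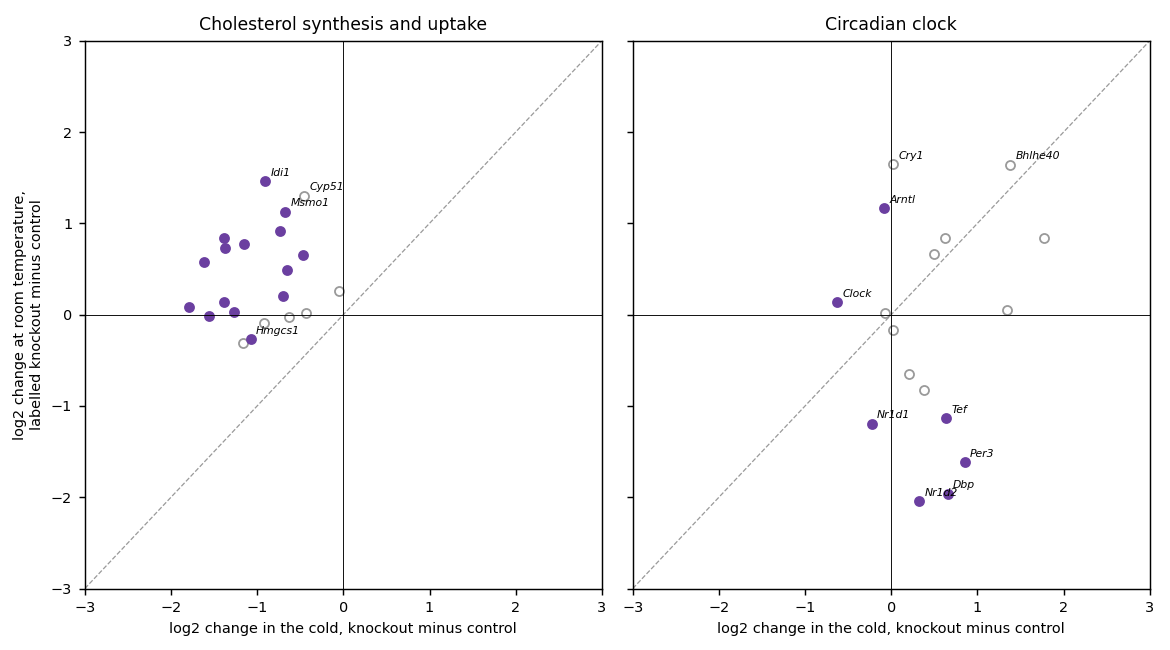
Change at room temperature (vertical axis, log2, arrays labelled knockout minus control) against the change of the same contrast in the cold (horizontal axis, log2) for 21 cholesterol genes (left) and 17 clock genes (right). Filled points passed an adjusted p of 0.05 for the difference between the conditions, the dashed line marks equal changes, and 15 of the 21 cholesterol genes shown lie above it as filled points.

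Because many clock genes were called in either direction, RefSeq promoter windows (build GRCm38.p6, 250 bases before to 50 after a start) were searched on both strands for the letters of the clock elements. The E-box was searched as CACGTG and occurred in 7.15% of the 32851 windows of all genes, the D-box as TTATGNAA in 3.38%, and the ROR element as ANTAGGTCA in 0.661%. Of the 19 clock genes 16 had a window, with 21 windows among them. The E-box was in 6 of these windows (28.6%), the D-box in 2 (9.52%) and the ROR element in 2 (9.52%). Counted by gene, 5 held the E-box (Tef, Cry1, Bhlhe41, Per1 and Ciart), 2 the D-box (Per3 and Per1) and 2 the ROR element (Arntl and Nfil3). Windows of 4 called clock genes are shown, 5′ to 3′ on the strand of the gene, to set a lower and a higher gene beside each other for the E-box and to show the other elements. Tef (lower) lies at chr15:81802423-81802722 on the + strand and Cry1 (higher) at chr10:85185005-85185304 on the - strand, each with an E-box. Per3 (lower) lies at chr4:151044616-151044915 on the - strand with 2 D-boxes, and Arntl (higher) at chr7:113207261-113207560 on the + strand with a ROR element. Capitals mark the element.
Tef: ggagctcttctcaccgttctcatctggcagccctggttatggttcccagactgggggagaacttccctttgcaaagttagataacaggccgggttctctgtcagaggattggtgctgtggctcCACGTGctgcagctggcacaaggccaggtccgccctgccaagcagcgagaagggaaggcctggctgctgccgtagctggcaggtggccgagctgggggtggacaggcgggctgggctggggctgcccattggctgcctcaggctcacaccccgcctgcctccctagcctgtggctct
Cry1: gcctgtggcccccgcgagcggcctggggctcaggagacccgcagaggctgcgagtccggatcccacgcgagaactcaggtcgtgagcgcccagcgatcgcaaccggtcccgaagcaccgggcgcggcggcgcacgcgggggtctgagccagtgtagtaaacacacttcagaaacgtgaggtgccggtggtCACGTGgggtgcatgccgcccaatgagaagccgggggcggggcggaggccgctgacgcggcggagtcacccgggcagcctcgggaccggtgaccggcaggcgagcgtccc
Per3: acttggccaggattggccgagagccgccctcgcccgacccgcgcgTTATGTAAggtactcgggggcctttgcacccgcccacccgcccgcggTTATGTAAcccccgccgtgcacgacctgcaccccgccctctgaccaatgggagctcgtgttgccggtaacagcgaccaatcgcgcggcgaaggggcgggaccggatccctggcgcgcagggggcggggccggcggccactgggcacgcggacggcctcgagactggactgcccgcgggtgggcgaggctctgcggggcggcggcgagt
Arntl: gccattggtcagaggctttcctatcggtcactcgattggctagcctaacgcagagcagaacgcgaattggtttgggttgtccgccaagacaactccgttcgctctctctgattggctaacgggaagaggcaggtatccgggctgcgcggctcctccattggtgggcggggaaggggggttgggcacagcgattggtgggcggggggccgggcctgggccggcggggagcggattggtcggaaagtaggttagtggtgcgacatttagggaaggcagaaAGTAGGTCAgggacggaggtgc
A PPAR pairs with a retinoid X receptor on a direct repeat, which was not searched whole. The string searched was AAAGGTCA, which holds the last base of the upstream part, the spacer and the downstream part. A match is therefore not a whole repeat. The string shares AGGTCA with the ROR element. It occurred in 1.51% of all windows and in 1 of the 15 windows (6.67%) of the thermogenic list. In the thermogenic list, of which 14 of 20 genes had a window, it occurred for Slc27a2, the fatty acid transporter that fell by 3.21. That window lies at chr2:126552774-126553073 on the + strand, and the string is here read on the opposite strand. The capitals mark the string alone, not a whole repeat.
Slc27a2: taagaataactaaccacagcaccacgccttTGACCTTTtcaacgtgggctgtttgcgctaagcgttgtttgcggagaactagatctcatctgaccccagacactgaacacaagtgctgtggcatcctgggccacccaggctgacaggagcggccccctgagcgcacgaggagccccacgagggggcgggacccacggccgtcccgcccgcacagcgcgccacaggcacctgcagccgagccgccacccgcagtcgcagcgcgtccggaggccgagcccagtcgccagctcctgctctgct
These matches describe letters in short windows, and a window without a match says nothing about binding elsewhere.

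Secreted factors gave 6 higher and 3 lower members of 20, with a median of 0.15 that ranged from 0.06 without the first control to 0.44 without the third. Igf1, insulin-like growth factor 1, stood at 1.97, 3.19, 3.26 and 2.91 on the arrays labelled knockout, against -0.67, -0.02, -0.48 and -0.77 on control arrays, a rise of 3.32 (SE 0.30), with its other probes between 0.98 and 3.47. Cxcl14, a chemokine of fat, stood at 5.49, 5.08, 4.60 and 4.60 on the arrays labelled knockout, against 1.25, 2.19, 1.61 and 1.68 on control arrays, a rise of 3.26 (SE 0.25). Adipoq, which encodes adiponectin, stood at 4.09, 4.42, 4.85 and 4.38 on the arrays labelled knockout, against 6.78, 5.94, 5.97 and 5.76 on control arrays, a fall of 1.68 (SE 0.24). None of the 3 showed overlap. Fst, follistatin, which binds activins, rose by 2.92 (SE 0.18). Fgf21, a metabolic hormone, was at 1.89 and Lep, leptin, at 0.56, and neither passed.

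Antioxidant and glutathione genes were higher in 9 and lower in 4 of 22 cases, with a median of 0.38, or 0.21 without the first control. Gpx3, the extracellular glutathione peroxidase, stood at 7.46, 7.83, 7.81 and 7.32 on the arrays labelled knockout, against 4.59, 4.45, 4.44 and 4.17 on control arrays. That rise of 3.19 (SE 0.14) was larger than any spread within a group. The metallothionein Mt2 rose by 2.0 (SE 0.28), the glutathione transferases Gstm2 by 1.84 (SE 0.10) and Gstm1 by 1.39 (SE 0.18), and Nfe2l2, the transcription factor NRF2, by 1.07. The superoxide dismutases of the mitochondria and cytosol, Sod2 (-1.03) and Sod1 (-0.67), were lower. In the unfolded protein and integrated stress response list 5 of 25 were higher and 2 lower (median 0.02). Sesn2 rose by 1.64 (SE 0.15) and Xbp1, which drives secretory capacity, by 1.37 (SE 0.15), while Asns, asparagine synthetase, fell by 1.01 (SE 0.24). In the immediate-early list, 2 of 14 were higher and 1 lower. Fosl2 was at 2.34 but at 0.55 on its other probe, Nr4a2 at 0.97 (SE 0.16) and Jun at -0.80 with overlapping groups. The Jun call was lost without any of 5 single arrays (-0.87 to -0.58) and under quantile and median scaling. It was also lost with normexp background correction, without a filter, with the slide as a block and on slide 1 alone (-0.23). In the creatine and calcium cycling list 3 of 8 were higher and 3 lower. Alpl, the alkaline phosphatase TNAP, fell by 2.50 (SE 0.11), and Slc6a8, the creatine transporter, rose by 1.24 (SE 0.10).

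Markers of some other cells differed with the genotype label, and their part in the results above was not tested. Endothelial markers were lower in 10 of 16 cases and limma called 0 higher, also at an unadjusted p under 0.05. Eng, endoglin, fell by 0.93 (SE 0.13), Robo4 by 0.79, Pecam1 by 0.68 and Cdh5, VE-cadherin, by 0.64. The mean level of this list was 0.63 to 0.90 on the arrays labelled knockout and 1.08 to 1.5 on control arrays. Lower members numbered 6 with normexp, 7 with median scaling, 0 on slide 1 alone (median -0.26) and 12 on slide 2 alone (median -0.73). Macrophage and inflammation genes gave 1 higher of 21 tested, Cd14, a co-receptor for lipopolysaccharide (1.91, SE 0.14), and a median of 0.49. Their mean level was -0.63, -0.72, -0.69 and 0.34 on the arrays labelled knockout, against -1.33 to -0.54 on control arrays, so that the fourth array labelled knockout alone lay above the controls. The median was 0.25 without that array and 0.27 without the first control. Limma called 0 of them lower, also at an unadjusted p under 0.05. Nerve and Schwann cell markers were higher in 7 of 10 cases (median 0.48), among them the myelin proteins Mbp (1.19, SE 0.16) and Pmp22 (0.85, SE 0.14). Their mean level was -2.45 to -2.26 on the arrays labelled knockout and -2.58 to -2.39 on control arrays. With normexp background correction 2 of them were higher.

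Preadipocyte and fibroblast markers gave 4 higher and 1 lower of 18 (median 0.07), including Pdgfra, a receptor of fat cell precursors (0.54, SE 0.17), Vim, vimentin (1.69, SE 0.20), and Gsn, gelsolin (0.81, SE 0.19) as higher. Without the second or the fourth array labelled knockout or the third control 2 were higher, and the Pdgfra call was lost without any of 5 single arrays (0.45 to 0.57). In the matrix list 4 of 27 were higher and 3 lower. Ccn2, connective tissue growth factor, fell by 1.95 (SE 0.18), and Lox, lysyl oxidase, which cross-links collagen, rose by 1.69 (SE 0.25). Without the third array labelled knockout 2 were higher. Lymphocyte and granulocyte markers gave 3 higher and 2 lower of 12, and 1 higher without the third array labelled knockout or the third control. White-adipose-enriched genes were higher in 2 of 8, Cxcl14 and the homeobox gene Hoxc8, and the Hoxc8 probe was well above background on 2 control arrays only. Their median of 0.51 was 0.26 without the first array labelled knockout, 0.31 without the first control, 0.24 without the fourth control and 0.81 without the second. Proliferation genes gave 1 higher (Pcna, 0.56) and 1 lower (Tyms, thymidylate synthase, -0.83) of 16. Without the fourth array labelled knockout 8 of them were lower, and without the first control array 2. Of 18 interferon-response genes limma called 0, and 1 was higher at an unadjusted p under 0.05. Their mean level was 1.06 on the fourth array labelled knockout and -0.97 to -0.67 on the other 3, against -0.90 to -0.36 on control arrays. Without the fourth array labelled knockout the median of 0.29 was -0.19, and 1 member was higher and 1 lower.

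Myoglobin, the oxygen store of muscle, was a case of its own. Mb stood at 6.82, 7.04, 6.60 and 6.19 on the arrays labelled knockout, against 2.08, -1.15, -1.46 and 0.68 on control arrays, a rise of 6.63 (SE 0.72, adjusted p = 0.000218). All 4 arrays labelled knockout were high. Several other muscle genes were high on the first of them only. Acta1, skeletal α-actin, stood at 1.86, -2.44, -4.22 and -4.15 on the arrays labelled knockout, against -3.31, -2.70, -3.97 and -3.83 on control arrays. Myh4, a fast myosin heavy chain, stood at 3.38, -6.95, -6.95 and -7.00 on the arrays labelled knockout, against -5.90, -6.82, -6.27 and -6.32 on control arrays, and it was well above background on that first array alone. Tnni2, a fast troponin, likewise stood at 4.01 on that array and between -1.97 and -1.25 on the other 3. Tnnc2 stood at 3.59, -1.51, -1.51 and -1.46 on the arrays labelled knockout, against -3.67, -2.28, -3.23 and -2.92 on control arrays. The groups did not overlap for Tnnc2. Over 21 muscle markers the mean level was -3.80 to 0.19 on the arrays labelled knockout and -3.95 to -3.61 on control arrays, and Mb was the 1 member of 12 tested that was called. Without the first array labelled knockout, 2 were higher and 1 lower, and the median of 0.43 was -0.13.

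**Figure D5:**
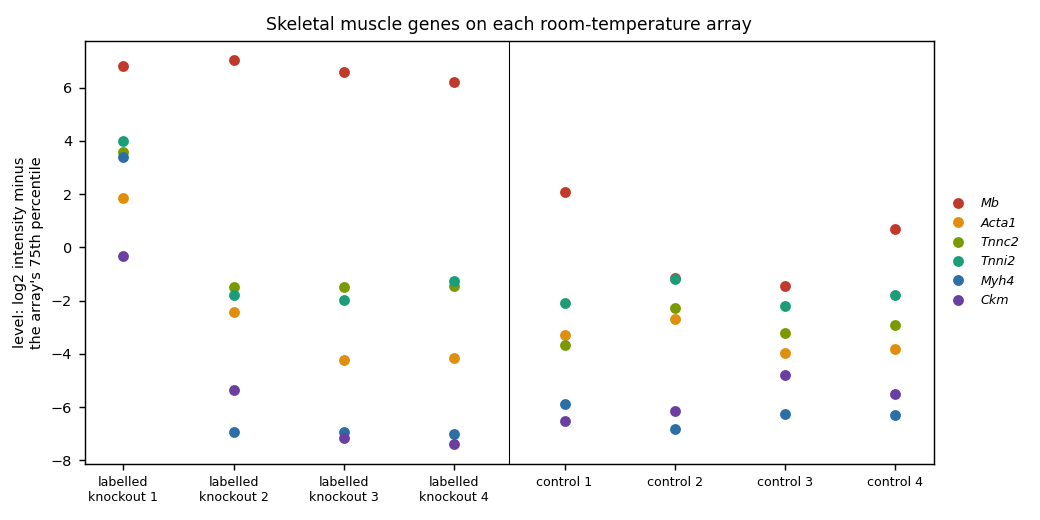
Level of 6 muscle genes (vertical axis, log2 intensity minus the 75th percentile of the array) on each of the 4 arrays labelled knockout (left of the line) and the 4 control arrays (right). Mb is high on all 4 arrays labelled knockout, at 6.19 to 7.04, whereas Acta1, Tnni2, Myh4 and Ckm are high on the first of them alone. Tnnc2 is by far highest on that first array but lies above every control array on all 4.

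Genes singled out for the size of the difference between room temperature and cold were mostly absent from the lists. More positive at room temperature were Flrt1, a membrane protein with leucine-rich repeats (difference 4.94), Ptgs1 (3.36), Nap1l5 (3.17), Maff, a small MAF factor (3.07), Aldoc (2.94) and Fbp2, the muscle fructose bisphosphatase (2.89). Their room-temperature changes were 1.18 for Flrt1, which did not pass at room temperature, 6.06 for Ptgs1, 2.98 for Nap1l5, 2.02 for Maff, 1.64 for Aldoc and 2.10 for Fbp2. More negative were Glod5 (-6.16), Scn4b, a sodium channel subunit (-5.11), Cpne5 (-4.74), Mal, a myelin and lymphocyte protein (-4.42), whose room-temperature change of -2.25 lost its call without any of 7 single arrays (-2.35 to -1.88), Crhr2, a receptor for urocortins (-4.17), and Ppp1r1b, also known as DARPP-32 (-3.65). Cpne5 stood at -0.97, -1.75, -1.82 and -1.89 on the arrays labelled knockout, against 2.70, 3.37, 3.59 and 3.19 on control arrays, and its change in the cold was -0.08. In the cold the change was 3.73 for Glod5, 3.88 for Scn4b, 2.17 for Mal, 3.90 for Crhr2 and 2.79 for Ppp1r1b. Crhr2 was at -0.27 at room temperature and did not pass. Of the 1879 genes with such a difference, 1166 were also called at room temperature, where 44.6% of all genes tested were called. The difference contains the room-temperature change, so the calls are not independent. Of the 5903 genes called at room temperature, 79.6% had a cold change of the same sign. That share was not computed over all genes, so it is not read as agreement between the conditions.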

How the data were processed

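RNA from the 8 room-temperature samples (4 per group) and the 8 cold samples was measured on 1-colour Agilent arrays. Per the file headers, Agilent Feature Extraction 10.7.3.1 made the deposited intensity of each spot by subtracting background and a spatial trend, without scaling between arrays. The same intensity values stand in the deposited series table. Per the labels' protocols, total RNA was isolated with TRIzol before amplification.

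Control spots (1377 of 44397) and outlier spots were left out, and the log2 intensity minus its array's 75th percentile was used. Accessions named 69.1% of 39429 probes, for 20659 genes, and the probe with the highest mean stood for a gene. Genes entered a fit if well above background on at least 4 of its arrays. Tests were 2-sided with limma 3.58.1 (lmFit, eBayes) under R 4.3.3 at a Benjamini-Hochberg adjusted p of 0.05, with the difference between room temperature and cold as an interaction over 16 arrays. The methods were tested on simulated data. For named genes the text takes Pparg, Gk and Ucp1, the 12 largest rises and falls, 5 bounds each way, up to 4 called members per list and 6 interaction genes each way. Other list members were chosen after their values were seen. Genes named for the size of their change were picked among called genes, so a lack of overlap in them is no further support. Some genes that the rule names are not reported here, and they remain in the counts over lists and over all genes. Members and lists were chosen with earlier results of these data known.

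Arrays of the same replicate number showed no sign of pairing (residual correlations -0.09 to 0.02). Such arrays lay on different slides, so these values cannot exclude a pairing. Alternatives were quantile and median scaling, normexp background correction, no filter, detection on all arrays and the mean of all probes. Further ones were a trended and robust fit, slide and replicate blocks, each array left out, and each slide alone. The mean spot signal was not among the columns used, so normexp took the median signal. The number of arrays limits the precision.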

Additional observations from a re-analysis of the deposited data

Results flagged for a closer look

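In 10 of the 318 groups of 4 arrays examined for the named genes, 1 array lay far from the other 3 by Dixon's 95% limit, which chance exceeds in about 1 of 20 groups. Among arrays labelled knockout, Lcn2 stood at 2.85 on array 4 against 1.55 to 1.66 on the others, Cpne5 at -0.97 on array 1 against -1.89 to -1.75, and Gm9961, not well above background on any of the 4, at -6.60 on array 1 against -5.38 to -5.32. Pecr stood at 4.04 on array 4 against 4.51 to 4.57, Scn4b at -0.11 on array 2 against -0.94 to -0.85, and Nfil3 at 1.92 on array 1 against 2.50 to 2.56. Among control arrays, Cyp4f14, not well above background on any of the 4, stood at -4.53 on array 2 against -6.05 to -5.81. Gstm1 stood at 3.98 on array 1 against 3.21 to 3.32, Crhr2 at -3.06 on array 3 against -3.47 to -3.40, and Nfil3 at 1.82 on array 3 against 1.42 to 1.47.

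For 66 named genes the knockout effect at room temperature differed from that in the cold (interaction in limma, adjusted p under 0.05). The values are log2 differences of the effects, room temperature minus cold. The limits on slide, position and brightness given above hold here too. The difference was positive for Flrt1 (4.94), Ptgs1 (3.36), Nap1l5 (3.17), Maff (3.07), Aldoc (2.94), Fbp2 (2.89), Ephx4 (2.80), Sult5a1 (2.79), Ptger3 (2.66), Cyp4f14 (2.62), Plch2 (2.54) and Idi1 (2.36). Smaller positive differences were those of Pon1 (2.26), Abcd2 (2.26), Mogat2 (2.16), Lrrn4cl (1.97), Msmo1 (1.81), Klf15 (1.79), Gpx3 (1.73), Plin2 (1.56), Lcn2 (1.56), Fst (1.44), Gstm2 (1.40), Ces1f (1.39) and Mbp (1.38). The remaining positive differences were those of Sesn2 (1.37), Lox (1.26), Arntl (1.25), Acsl4 (1.21), Mccc1 (1.06), Sdha (0.94), Slc6a8 (0.91), Hilpda (0.90), Lpin3 (0.80), Cd14 (0.79) and Acadsb (0.79). The difference was negative for Glod5 (-6.16), Scn4b (-5.11), Cpne5 (-4.74), Mal (-4.42), Crhr2 (-4.17), Fam131c (-3.75), Ppp1r1b (-3.65), B4galnt2 (-3.20), Dbp (-2.62), Serinc2 (-2.55), Alpl (-2.53), Per3 (-2.47) and Lamb3 (-2.40). Smaller negative differences were those of Nr1d2 (-2.37), Jun (-2.20), Gamt (-2.06), Slc27a2 (-2.05), Pex14 (-1.84), Acss1 (-1.82), Tef (-1.77), Ccn2 (-1.76), Pmp22 (-1.29), Mfap5 (-1.26), Cdh5 (-1.03), Nkg7 (-0.98) and Nr1d1 (-0.97). The remaining negative differences were those of Pecam1 (-0.83), Ckmt1 (-0.74), Bckdhb (-0.72) and Robo4 (-0.67). In the cold, Klf15 was well above background in neither group and Plch2 in no control array. Lamb3, B4galnt2, Fam131c and Serinc2 were there well above background in no array labelled knockout. At room temperature, Cyp4f14, Ephx4 and Plch2 were well above background in no control array, and B4galnt2, Fam131c and Serinc2 in no array labelled knockout. Abcd2 and Mogat2 were so in only some control arrays at room temperature, and Per3 in only some arrays labelled knockout. The differences of all these genes are not read as sizes.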

How the results depend on the processing

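The change of Pparg kept its direction and its call under all 19 alternatives (2.01 to 2.27), and that of Ucp1 under all 19 as well (-1.12 to -0.44). Gk was at -0.55 and no longer called on slide 1 alone, and called under the other 18. The number of called genes fell from 5903 to 2899 with normexp correction (1136 higher, 1763 lower, 738 at least 2-fold changed) and to 1193 on slide 1 alone (468 higher, 725 lower), against 4057 on slide 2 alone (1733 higher, 2324 lower) with as many arrays; the cause was not tested. Without a filter on dim probes 5377 genes were lower. Genes that differed between room temperature and cold numbered 1879, and 610 with normexp. Leaving out 1 array gave 4968 to 5839 called genes (2067 to 2667 higher, 2868 to 3172 lower, 1213 to 1364 at least 2-fold changed) and 1231 to 2187 differences between conditions, and changes of 2.03 to 2.12 for Pparg, -0.98 to -0.70 for Gk and -1.12 to -0.88 for Ucp1. The replicate numbers showed no sign of pairing the samples (residual correlations 0.02, -0.09, 0.01 and -0.01), which does not exclude it. With the replicate number as a block 5098 genes were called (2272 higher, 2826 lower), against 6060 with the slide as a block. Flrt1 was reversed on slide 1 alone, at -0.00178. Of 2897 comparisons of 156 other named genes with an alternative, 2734 kept their direction and their side of the threshold, 159 lost and 3 gained the call, and 69 genes lost it somewhere; the cause was not tested. Each slide alone and the median spot signal in normexp were chosen after seeing the data. Probes near background limit what can be said of genes such as Per3, Cry1, Abcd2 and Mogat2.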

Other observations

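Some gene families were described after the data had been seen and are given without a test beyond that of each gene. Of 77 mitochondrial ribosomal protein genes (Mrpl and Mrps), limma called 54 lower and 0 higher on the arrays labelled knockout, with a median change of -0.42, beside -0.05 for all genes. Of 77 cytosolic ribosomal protein genes (Rpl and Rps), 16 were higher and 8 lower, with a median of 0.14. Of 20 glutathione S-transferase genes (Gst), which couple glutathione to electrophiles, 12 were higher and 2 lower, with a median of 1.0. Hox genes, which keep positional identity, gave 9 higher and 2 lower of 23, with a median of 0.20. Proteasome subunits (Psm) gave 1 higher and 11 lower of 38, with a median of -0.17. Mitochondrial carriers of the Slc25 family gave 6 higher and 12 lower of 37, and semaphorins and plexins, guidance molecules of nerves and vessels, 4 higher and 7 lower of 20. The solute carriers of the Slc22 family, which move organic ions and carnitine, gave 3 higher and 6 lower of 14. Cytochrome P450 genes (Cyp) gave 10 higher and 11 lower of 45, and sulfotransferases (Sult) 2 higher and 3 lower of 6.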
